A study of Homo sapiens with 2 samples.

Results

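Expansion segment 27 of human 28S rRNA, ES27L, was examined in a CLIP-seq experiment, in which RNA fragments recovered with a protein are sequenced. The segment was taken as the fixed range of positions 2891 to 3600 of 28S, 710 of the 6940 positions of 18S and 28S in the deposited table. The range was defined by position and not by a coverage limit, and its limits are approximate. Earlier results of these data were known when it was chosen. The study compared 1 library from a pull-down of a construct labelled ZAK-alpha-RBR with 1 mock library. Both came from U2OS cells, a line derived from a human osteosarcoma. ZAKα is a kinase that starts the ribotoxic stress response when ribosomes stall, and the comparison asks where on the rRNA the construct lies. The labels give no genotype, treatment or time for either library, and they do not say what the mock was made with. With 1 library of each kind there was no spread between replicates, so the libraries were not tested against each other and no p-values are reported.

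Ribosomes of all organisms share a core of rRNA, and eukaryotic 28S rRNA carries added stretches, called expansion segments, that extend from this core. ES27L grows out of helix 63 in domain IV and is among the longest of them. It is a flexible arm on the solvent side of the large subunit. In yeast it has been seen in several positions, among them one beside the exit of the tunnel through which the new protein leaves. It is known there as a landing place for enzymes that modify the start of the growing protein, such as the N-terminal acetyltransferase NatA in yeast.

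The letters of the range fitted a long GC-rich insertion. It held 326 C, 292 G, 59 U and 33 A, so that 87.0% of its bases were G or C, against 66.4% in the rest of 28S and 56.0% in 18S. Runs of 3 or more equal bases took 40.3% of its positions, against 26.5% of the rest of 28S. The sequences below are those on which the results turn, copied from the deposited table and written 5′ to 3′ as RNA. In the first 71 positions of the range, 2891 to 2961, the capitals mark positions 2891 to 2904, which hold the highest coverage of the range in the ZAK-alpha-RBR library. In the segment at 3033 to 3103 the capitals mark the 1 stretch, 3046 to 3066, that was called higher with ZAK-alpha-RBR. In the segment at 3240 to 3292 the capitals mark the longest unbroken run of positions, 3250 to 3282, at which the mock was the higher library. In the segment at 3473 to 3512 they mark the second longest run of positions with a 2-fold or larger excess of ZAK-alpha-RBR, 3488 to 3497. In the segment at 3358 to 3392 they mark a run of G with a sharp loss of depth in both libraries. In the last 40 positions they mark the end of the range, 3591 to 3600, where the mock was again higher.
28S 2891 to 2961: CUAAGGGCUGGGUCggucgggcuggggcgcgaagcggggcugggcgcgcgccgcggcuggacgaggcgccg
28S 3033 to 3103: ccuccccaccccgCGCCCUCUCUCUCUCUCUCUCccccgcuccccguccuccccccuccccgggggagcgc
28S 3240 to 3292: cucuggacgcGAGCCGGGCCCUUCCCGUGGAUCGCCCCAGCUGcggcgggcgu
28S 3358 to 3392: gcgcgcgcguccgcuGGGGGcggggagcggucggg
28S 3473 to 3512: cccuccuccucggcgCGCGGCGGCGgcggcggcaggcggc
28S 3561 to 3600: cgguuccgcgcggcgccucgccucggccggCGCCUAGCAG

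The segment was thinly covered in both libraries. It makes up 10.2% of the positions but held 4.22% of the ZAK-alpha-RBR coverage (95% exact binomial interval 3.93 to 4.54) and 3.003% of the mock coverage (2.90 to 3.11). The intervals rest on the smallest number of reads that the depths allow, 17111 with ZAK-alpha-RBR and 98906 in the mock, and cover counting error only. Copies of 1 molecule cannot be told from separate molecules here, so for molecules the intervals may be too narrow. To compare the libraries, each value was divided by the summed coverage of its library and expressed in parts per 1000000 (ppm). On this scale the mean level in the segment was 59.5 ppm with ZAK-alpha-RBR and 42.3 ppm in the mock, which is 0.413 and 0.294 of the mean over all positions. The segment was thus 1.41-fold higher with ZAK-alpha-RBR, a log2 ratio of 0.48 (interval from counting error 0.37 to 0.61). Ratios on the log2 scale carry a pseudocount of 1 ppm in both libraries, and folds of means and of single positions carry none.

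The unscaled depth shows how much lies behind these values. The median position of the segment was covered by 334.5 reads with ZAK-alpha-RBR and by 2492 in the mock, whose summed coverage over both rRNAs was 11.5 times larger. The depth ran from 5 to 1703 reads with ZAK-alpha-RBR and from 21 to 15773 in the mock, and no position of the segment was without a read. Over all positions of the table the median depths were 770.5 and 9865.5.

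**Figure D1:**
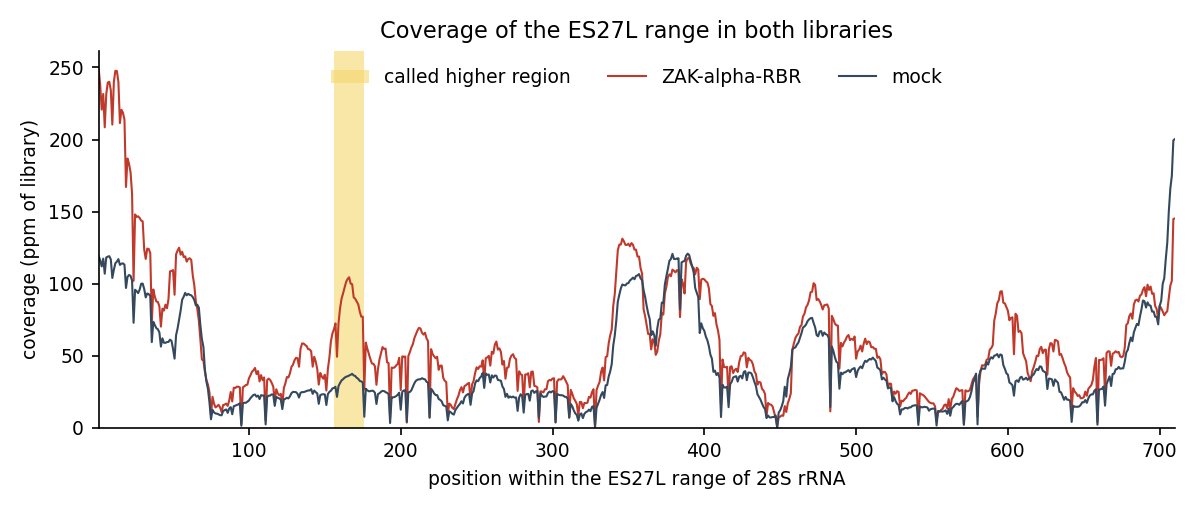
Coverage of each of the 710 positions in ppm of its library (vertical axis) along the segment, counted from its first position (horizontal axis), for the ZAK-alpha-RBR and the mock library, 1 library each. ZAK-alpha-RBR coverage is highest at the 5′ end, 249 ppm, and mock coverage at the 3′ end, 200.3 ppm, the deepest troughs lie at the same or nearby places, and the shaded stretch is the called region at 3046 to 3066.

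The profiles were similar in shape. Over the 710 positions the Pearson correlation of log2 coverage between the libraries was r = 0.92, against r = 0.77 over the 4360 positions of the rest of 28S. It was 0.92 as well over the 443 positions outside both long expansion segments whose surrounding 71 positions were at least 80% G or C, and 0.84 over the range about expansion segment 7, described below. Adjacent positions are covered by the same reads, so these values are descriptions. After averaging over 15 positions, the 5 deepest troughs of the ZAK-alpha-RBR library lay at 2972, 3128, 3211, 3338 and 3445, and those of the mock at 2972, 3124, 3211, 3335 and 3445. The averaged coverage there was between 11.05 and 21.8 ppm with ZAK-alpha-RBR and between 9.89 and 13.6 ppm in the mock. The troughs therefore coincided, or nearly so, in both libraries.

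The highest peaks coincided in part. The 5 highest local peaks of averaged coverage lay at 3240, 2945, 3285, 3580 and 3057 with ZAK-alpha-RBR and at 2892, 3274, 3242, 2951 and 3362 in the mock. The peaks at 3240 and 2945 had a near partner in the mock, and those at 3285 and 3274 lay farther apart, while the others were in 1 list only. At 2892 the averaged coverage was higher with ZAK-alpha-RBR than at any of its listed peaks, with 243 against 117 ppm in the mock, but its local maximum there lies before the border of the segment and was not counted. At 3240 the averaged coverage was 126 ppm with ZAK-alpha-RBR and 100.3 ppm in the mock. At 2945 it was 116 and 77.1 ppm. At 3057, a peak listed for ZAK-alpha-RBR alone, the averaged coverage was 92.2 ppm with ZAK-alpha-RBR and 34.7 ppm in the mock, and this place lies in the called region.

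The excess was spread over most of the segment and was small at most positions. The ZAK-alpha-RBR library was the higher one at 639 of the 710 positions (90.0%), against 56.4% of all positions of 28S and 54.5% of all positions of the table. The median log2 ratio over positions was 0.54, and 90% of the positions lay between -0.19 and 1.17. Over all of 28S the median was 0.15 and the same range ran from -1.56 to 1.16. The upper ends of the 2 ranges were alike, and the lower end of the segment was far less deep.

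Large differences in favour of ZAK-alpha-RBR were about as frequent as over the whole table. A 2-fold excess or more was seen at 83 positions of the segment (11.7%), where 9.49% of all 28S positions and 9.31% of the whole table passed the same limit. At least 2-fold lower was 1 position (0.141%), where 10.7% of 28S and 11.9% of the table did. That position was 3342, a C at the end of a run of C, covered by 57 reads with ZAK-alpha-RBR and by 1450 in the mock. No position of the segment was 4-fold higher or 4-fold lower, limits passed by 0.749% and 2.55% of all positions and by 0.611% and 2.58% of 28S positions. The 31 positions of 28S that were 4-fold higher all lay in the range about expansion segment 7, and the 131 that were 4-fold lower lay outside both. The share of positions with a 2-fold deficit was thus low in the segment. The share with a 2-fold excess was near that of 28S as a whole and above that of 28S outside both ranges. With 1 library per group this was not tested.

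**Figure D2:**
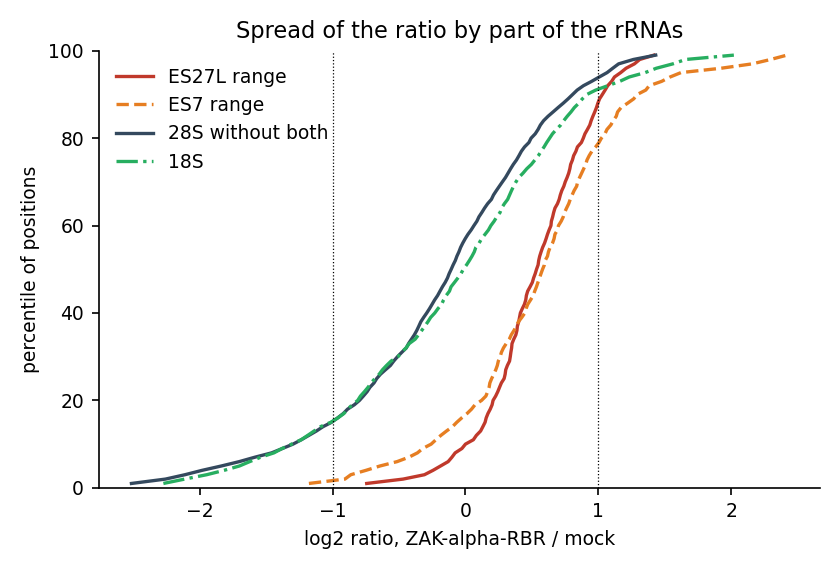
Spread of the log2 ratio of ZAK-alpha-RBR to mock over positions, drawn as percentile of positions (vertical axis) against the ratio (horizontal axis), for the ES27L range, the range about expansion segment 7, the positions of 28S outside both and 18S. Dotted lines mark 2-fold. The curve of the ES27L range is steep, with 90% of positions between -0.19 and 1.17, and hardly enters the region left of the lower dotted line.

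The shift was shared with other GC-rich stretches of 28S. Expansion segment 7 is the other very long insertion of this rRNA, and the 861 positions from 440 to 1300, about that segment, were 83.2% G or C. Their median log2 ratio was 0.58, at mean levels of 76.8 ppm with ZAK-alpha-RBR and 49.2 ppm in the mock. At least 2-fold higher there were 21.3% of positions, and at least 2-fold lower 1.63%. Split by the GC content of the surrounding 71 positions, the rest of 28S had a median log2 ratio of 0.55 where GC was at least 80% (1095 positions), 0.01 where it was 60 to 80% (1577 positions) and -0.34 where it was under 60% (1688 positions). Of the positions with at least 80% GC, 652 lay in the range about expansion segment 7, and the 443 outside it had a median of 0.55 as well. Among these 443, 20.8% were 2-fold higher or more and 1.13% were 2-fold lower or more. Positions of the rest of 28S with a mean coverage under 100 ppm had a median of 0.28. The median of ES27L, 0.54, was thus close to that of other GC-rich 28S rRNA, and the part of base composition in the excess was not tested. The classes by GC content and by coverage were chosen after the values were seen.

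Along its length the segment varied more than it differed between libraries. It was divided into 10 consecutive bins of 71 positions, numbered from the 5′ end, whose mean levels differed up to 4.59-fold with ZAK-alpha-RBR and up to 4.74-fold in the mock. ZAK-alpha-RBR was the higher library in all 10 bins, by between 1.07-fold and 2.19-fold, but in bin 10 the log2 ratio of 0.09 turned to -0.0065 with scaling by the median of ratios. Bin 1 was the most covered, with 141 ppm against 88.4 ppm in the mock, and held 23.7% and 20.9% of the coverage of the segment. Bin 8, at 3388 to 3458, was the least covered with ZAK-alpha-RBR, at 30.7 ppm against 23.2 ppm. In the mock the least covered was bin 2, at 2962 to 3032, with 18.7 ppm against 31.3 ppm with ZAK-alpha-RBR.

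The ratio was highest in bin 3 and lowest in bin 10. Bin 3, from 3033 to 3103, averaged 57.3 ppm with ZAK-alpha-RBR and 26.2 ppm in the mock, 2.19-fold apart. It is the most pyrimidine-rich of the 10, with 81.7% C or U. Bin 2 follows with 73.2% and bin 10 with 60.6%, and bin 4 has the least, 33.8%. A link between pyrimidine content and ratio was not tested. Bin 3 held 35 of the 83 positions past the 2-fold limit, bin 2 held 7 and bin 4 held 14. Bin 10, from 3530 to 3600, had 61.9 and 57.9 ppm, 1.07-fold apart, and held 1 of them. Bin 6, from 3246 to 3316, was also near equality, with 80.2 and 74.0 ppm, and 33 of its positions were lower with ZAK-alpha-RBR.

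**Figure D3:**
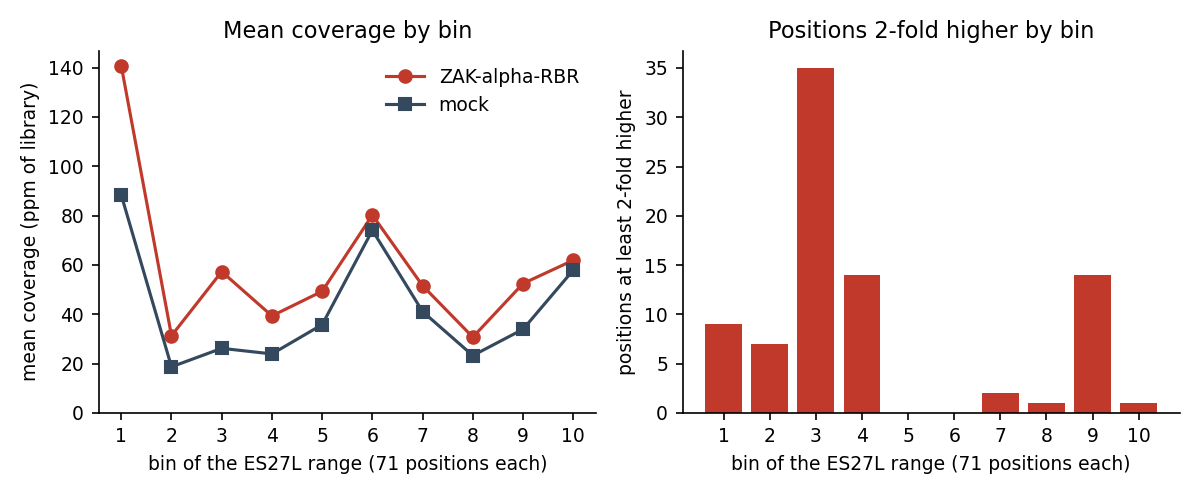
Left, mean coverage in ppm of each library in the 10 bins of the segment, numbered from the 5′ end. Right, number of positions of each bin with a 2-fold or larger excess of ZAK-alpha-RBR. The ratio of the libraries is highest in bin 3, 57.3 against 26.2 ppm, which holds 35 of the 83 positions.

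One stretch of the segment was called higher. The call asks for a ratio, after averaging both profiles over 15 positions, at least 2-fold above the median ratio of 28S over at least 10 positions in a row. It was met at 3046 to 3066, 21 positions or 2.96% of the segment, while 3.49% of all 28S positions lie in such regions. The stretch, in capitals above, starts with CGCCC and goes on as a tract of alternating C and U, with 12 C, 8 U and 1 G in all. Its mean coverage was 83.3 ppm with ZAK-alpha-RBR and 31.7 ppm in the mock, 2.63-fold apart, and it took 0.175% and 0.0666% of the library coverage. The depth within it ran from 182 to 714 reads with ZAK-alpha-RBR and from 605 to 2950 in the mock.

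The stretch was called for its ratio, so an excess within it follows from the call, and its positions share reads. Single positions are given as a description. At position 3056, where the averaged ratio was highest, 714 reads (95% exact Poisson interval 663 to 768) with ZAK-alpha-RBR stood against 2858 in the mock, a fold of 2.88. At position 3046, the first of the call, 467 and 2179 reads were 2.47-fold apart. At position 3066, the last of the call and the first base of a run of C, depth dropped to 182 and 605 reads, 3.47-fold apart, a value from inside a dip of both libraries. The run of positions each at least 2-fold higher was slightly longer than the call, from 3044 to 3068, and was the longest of 18 such runs in the segment. Because the tract repeats itself, reads that lie wholly within it can be placed at more than 1 position of it, and how such reads were placed is not given in the sources used here. Measured against the median ratio of the segment in place of that of 28S, no stretch was called, nor was any at a 3-fold limit.

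**Figure D4:**
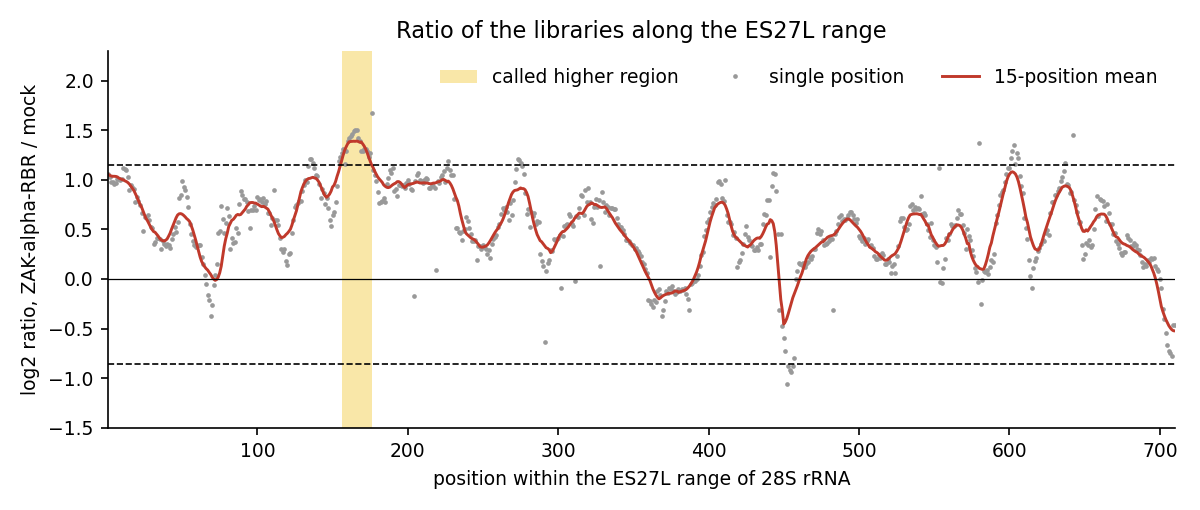
Log2 ratio of ZAK-alpha-RBR to mock (vertical axis) at each position of the segment, counted from its first position (horizontal axis), for single positions (points) and after averaging both profiles over 15 positions (line). Dashed lines lie 2-fold above and below the median ratio of 28S, and the line stays above the upper one over at least 10 positions in a row in the shaded stretch at 3046 to 3066.

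The other runs were short. The second longest, 3488 to 3497, holds repeats of GGC, and its mean was 75.3 ppm with ZAK-alpha-RBR against 32.7 ppm in the mock, 2.31-fold apart. It was covered by 349 to 590 reads with ZAK-alpha-RBR and by 1756 to 3225 in the mock. Stretches of 15 bases that start at 3489, 3490 and 3491 also occur elsewhere on 28S. Their copies start between 848 and 877 and between 2151 and 2159, so reads of the 3 places may not be separable. Of the 696 stretches of 15 bases in the segment, 9 occur more than once in the table and 5 of these outside the segment, so most of the segment was unique at this length. A run at 3024 to 3030 averaged 56.4 against 25.2 ppm, and one at 3162 to 3167 averaged 45.2 against 19.7 ppm.

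The highest positions differed between the libraries. With ZAK-alpha-RBR the 5 positions of highest coverage were 2891, 2898, 2901, 2902 and 2903, all at the 5′ end of the segment. They were covered by between 1640 and 1703 reads with ZAK-alpha-RBR and by between 8629 and 9390 in the mock, and their folds lay between 2.02 and 2.19. At position 2891 the levels were 249 ppm and 119 ppm, 2.09-fold apart (95% exact interval 1.98 to 2.20). This peak runs over the border of the segment. Over the 50 positions before it the means were 192 ppm (ZAK-alpha-RBR) and 129 ppm (mock).

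In the mock the highest positions lay at the opposite end. They were the last 5 of the segment, 3596 to 3600, with between 11805 and 15773 reads in the mock and between 616 and 993 with ZAK-alpha-RBR. Here ZAK-alpha-RBR was the lower library, at 0.583 to 0.726 of the mock level. At each end the 5 positions were picked by the coverage of the library that is higher there, so these folds follow in part from the choice. The positions of each set also lie close together and are covered largely by the same reads. At position 3600 the levels were 145 ppm with ZAK-alpha-RBR and 200.3 ppm in the mock, a fold of 0.725 (0.680 to 0.773). The coverage stayed high past the border, with 176 and 165 ppm over the next 50 positions.

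Positions that favoured the mock were few and lay in blocks. At 71 positions ZAK-alpha-RBR was the lower library, in 14 runs of which 8 were single positions. The longest run, 3250 to 3282, covers 33 positions with 88.6 ppm against 97.7 ppm in the mock, a fold of 0.907. It holds a peak of the mock, at 3274, and a dip of both libraries near 3258, and its depth ran from 346 to 806 and from 4481 to 9514 reads. The runs at 3339 to 3348 and at 3591 to 3600 cover 10 positions each, with folds of 0.632 and 0.689. No stretch of the segment was called lower, while 9.29% of all 28S positions lie in the 23 lower regions of that rRNA. The nearest of these lie at 2787 to 2802 and at 3722 to 3744.

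Runs of equal bases left dips in both profiles. Ion Proton sequencing, the platform named in the labels, reads a run of equal bases in a single step, and the lengths of such runs are known to be read less surely than other sequence. In the segment there were 22 runs of 5 or more C or G, the longest of 8 bases. In these the lowest depth was, in the median, 17.6% of the lower of both flanking positions with ZAK-alpha-RBR and 17.2% in the mock. It was under 50% of it in 16 and 18 of the 22 runs. A flank can lie in the dip of a neighbouring run, and the percentage then understates the loss. In the run of G at 3201 to 3206 depth fell from 203 to 48 reads with ZAK-alpha-RBR, yet this counts as 84.2% of the lower flank. The bases differed: in the 7 runs of G the medians were 15.3% with ZAK-alpha-RBR and 31.8% in the mock, and the dip was deeper with ZAK-alpha-RBR in 6 of them. In the 15 runs of C they were 21.0% and 14.3%, and it was deeper with ZAK-alpha-RBR in 2. The 22 runs of 5 or more G outside the segment had medians of 26.3% and 33.6%, deeper with ZAK-alpha-RBR in 17. The 28 such runs of C had 21.8% and 20.9%, deeper in 13. In the 46 runs of 3 or 4 C or G of the segment the medians were 82.3% and 88.4%.

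The sharpest steps of the profiles were of this kind. The largest fall with ZAK-alpha-RBR was at the first base of the run of G at 3373 to 3377, shown above, from 566 reads at 3372 to 78 at 3373, and depth returned to 531 reads at 3374. In the mock the same 3 positions had 4910, 1131 and 4441 reads. Of the 5 largest falls, all 5 in each library stepped into a run of 3 or more equal bases. The other large falls with ZAK-alpha-RBR ended at 2914, 2926, 3066 and 3109, and those of the mock at 2914, 2926, 3274 and 3470. All 5 of the largest rises with ZAK-alpha-RBR and 4 of 5 in the mock lay inside such a run. They ended at 2915, 3095, 3110, 3374 and 3550 with ZAK-alpha-RBR and at 3275, 3374, 3471, 3550 and 3599 in the mock. The lowest depth of the segment, 5 reads with ZAK-alpha-RBR and 21 in the mock, was at the first base of a run of C, position 3338. Of the 83 positions past the 2-fold limit, 13 lay inside runs of 5 or more C or G. Such runs hold 126 of the 710 positions of the segment. The 1 position past the limit in the other direction, 3342, also lay in such a run. With the dips filled to the level of their flanks, 79 positions in place of 83 passed the 2-fold limit (11.1%, against 9.35% of 28S).

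**Figure D5:**
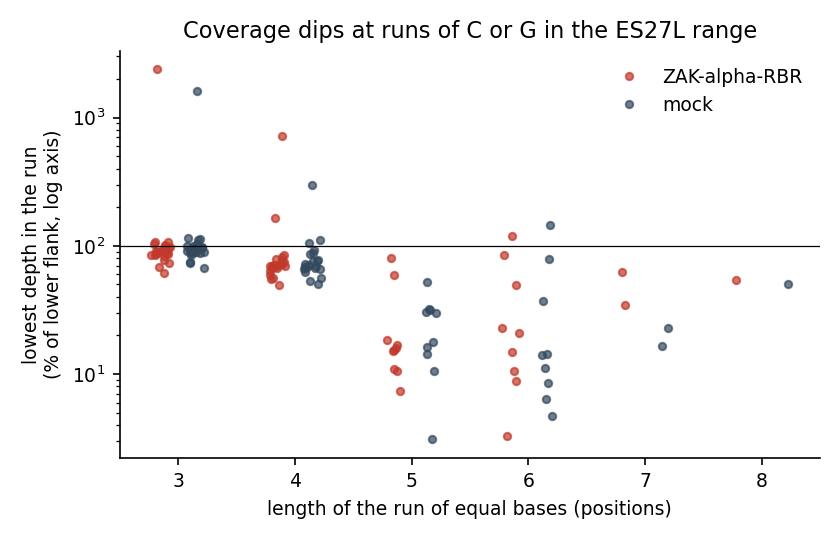
Lowest depth inside each run of C or G in the segment, as a percentage of the lower of both flanking positions (vertical axis, logarithmic), against the length of the run (horizontal axis, points spread sideways), for both libraries. Points above 100% are runs in which no position fell below the lower flank, which can itself lie in a neighbouring dip. From a length of 5 the median over C and G lies at 17.6% with ZAK-alpha-RBR and 17.2% in the mock.

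A fold predicted from the sequence placed the ends of the range in a common stem. The minimum free energy structure of the 710 bases, which leaves out proteins and the rest of the ribosome, paired 78.3% of the positions. Its outer stem joined 2897 to 2909 with 3584 to 3598 and opened into 2 branches, at 2910 to 3281 and at 3284 to 3582. The strands of the outer stem differed between the libraries in opposite directions, with 225 against 113 ppm in the 5′ strand and 87.0 against 106 ppm in the 3′ strand. The median log2 ratio was 1.01 in the 5′ strand and -0.09 in the 3′ strand. The strands include positions picked above as the highest of each library, so these values are not a separate result. The first branch was 1.43-fold higher with ZAK-alpha-RBR and the second 1.38-fold. In the first branch the 5′ strand, 2910 to 3087, was 1.62-fold higher and the 3′ strand, 3094 to 3281, was 1.26-fold higher. In the second branch these were 1.31-fold and 1.44-fold. Predicted paired and unpaired positions had like ratios, with median log2 ratios of 0.54 (556 positions) and 0.52 (154 positions). The prediction was not checked against a structure of the ribosome.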

How the data were processed

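Per the file headers, the deposited table holds 1 column of normalized reads for each of the 2 libraries, by position of 18S and 28S rRNA. The deposited values are a coverage signal, in which 1 read counts at all positions it covers. Per the submitters' processing notes, cutadapt 2.0 and Bowtie2 2.3.4.1 were used. Of the settings, reference, strand and treatment of multiply placed reads the sources used here say nothing, and the copy of the repeated rRNA genes is not named, so positions are those of the table and no chromosome position is given. The deposited columns have the same sum, 78749474. In the ZAK-alpha-RBR column 1 read is worth 11.5, and division by this factor left 100% of values whole within 0.001 of a read, with an unscaled sum of 6835941.

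Values were then expressed in ppm of each library's sum. Ratios, 15-position means, called regions, bins of 71 positions and runs were computed in Python 3.11.15, intervals with scipy 1.17.1, and the fold with RNAfold 2.7.2. The region rule was checked on simulated data with counting error only and with planted segments longer than the called stretch. The check does not bear on that stretch itself. Positions named are the 5 highest positions, peaks, troughs, rises and falls per library (peaks at least 25 positions apart), the called regions, the longest runs and the bins of highest and lowest ratio. Other scalings, pseudocounts, windows, limits, baselines and range borders were tried. The range and these rules were chosen with earlier results of these data known.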

Additional observations from a re-analysis of the deposited data

How the results depend on the processing

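The log2 ratio of the whole segment, 0.48, lay between 0.38 (median-of-ratios scaling) and 0.55 (scaling within 28S) under all 7 alternatives tried, and its direction held. The shares follow the borders: 3.05% with ZAK-alpha-RBR and 2.17% in the mock with the range narrowed by 50 positions on each side, 6.06% and 4.47% with it widened, and 6.58% and 4.47% as shares of 28S coverage alone. The count of 83 positions at least 2-fold higher (11.7%, against 9.49% of 28S) was 50 with the median of ratios (7.04% against 6.75%), 52 with the trimmed mean of M values (7.32% against 6.90%), 120 with scaling within 28S (16.9% against 11.4%), 101 with a pseudocount of 0.1 ppm (14.2% against 10.1%), 30 with one of 10 ppm (4.23% against 5.35%) and 31 among the 234 positions over the lower quartile of 28S coverage (13.2% against 7.996%). The 1 position at least 2-fold lower (0.141%, against 10.7% of 28S) became 3 with the median of ratios (0.423% against 12.6%). With the trimmed mean the count was 3 as well (0.423% against 12.5%). The count was 0 with scaling within 28S (against 10.02% of 28S) and with a pseudocount of 10 ppm (against 9.39%). Over the lower quartile it was also 0 (against 13.02%). The 1 called higher region was found with windows of 5 and 31 positions, a pseudocount of 10 ppm and a minimum of 20 positions. There were 6 at a 1.5-fold limit, 2 with library totals as the baseline, 0 at a 3-fold limit and 0 against the median ratio of the segment itself. No lower region was called under any of these settings. The log2 ratio of bin 10, 0.09, turned to -0.0065 with the median of ratios. No replicate could be left out with 1 library per group. No paired analysis was possible because each group holds 1 library. Depth limits single positions most in the troughs, where the ZAK-alpha-RBR library has down to 5 reads.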

Other observations

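Steps from C to A took less of the rises and falls of coverage in ES27L than in the rest of 28S. The segment holds 13 such steps, 1.83% of its neighbouring pairs, against 156 and 3.58% in the rest of 28S. In the rest of 28S these steps took 19.5% of the summed falls of ZAK-alpha-RBR coverage and 11.7% of those of the mock. In the segment they took 0.188% and 0.0732%. As places where coverage rises they held 5.89% of the summed rises in the segment with ZAK-alpha-RBR and 4.33% in the mock, also less than the 19.5% and 12.1% in the rest of 28S. Coverage rose at 11 of the 13 steps in each library, while in the rest of 28S it rose at 70 of 156 with ZAK-alpha-RBR and at 77 in the mock. The largest of them in the segment was from 3598 to 3599, where depth went from 697 to 990 reads with ZAK-alpha-RBR and from 13764 to 15705 in the mock. The next was from 3347 to 3348, from 164 to 370 and from 3330 to 4267 reads. Of the 13 steps, 7 follow a run of 4 or more C, where a rise can be the end of a dip, so rises there cannot be read as starts of fragments. Falls after C made up 44.0% of all falls in the segment with ZAK-alpha-RBR and 39.2% in the mock, where C is 46.0% of the bases before a step. After filling of the dips at homopolymers these shares were 53.9% and 48.7%, so they lay below or above the share of C according to the setting.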
